A study of Bactrocera dorsalis with 16 samples.

Results

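Larval serum protein 2, 4-hydroxyphenylpyruvate dioxygenase, homocysteine S-methyltransferase 1 and peroxiredoxin-6-like are the 4 genes described here, out of 13759 genes in the expression table. They were chosen by their fat body FPKM values, which were higher by day 13 of adult life. Those levels, and every comparison that uses them, are given as a description with no test. Their levels in the ovary were not used in the choice and were tested for 3 of the 4 genes, all but larval serum protein 2, which was at or near 0 there.

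Tissues came from female adults of Bactrocera dorsalis, the oriental fruit fly, kept on yeast extract and sugar. The labels name no mutation or treatment in any group, and they do not say how many flies went into a library. The 8 groups were fat body at 1, 5, 9 and 13 days after eclosion and ovary at the same 4 ages, each with 2 libraries, 16 in all. Levels are in FPKM, a fragment number per unit of transcript length and of library size, and means are given ± SD with n = 2. The design calls the 2 libraries of a group biological replicates, and the sources used here say no more about how they were separated.

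The fat body of insects stores nutrients, turns over amino acids and, in adult females, makes the yolk precursors that the ovary takes up. Larval serum proteins are hexamerins, storage proteins that fly larvae secrete into the blood and take back as an amino acid reserve for metamorphosis. 4-hydroxyphenylpyruvate dioxygenase makes homogentisate in the breakdown of tyrosine, after tyrosine aminotransferase has removed the amino group. Homocysteine S-methyltransferase returns homocysteine to methionine, the precursor of the methyl donor S-adenosylmethionine. Peroxiredoxin-6 proteins reduce hydrogen peroxide and lipid hydroperoxides.

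The 16 libraries had FPKM sums of 290383 to 405928 and between 7425 and 9054 genes at 1 FPKM or more. The depth of the libraries is unknown, so a level of 0 sets no stated limit. The fat body label was checked against 7 markers of that tissue, which include apolipophorins and lipid droplet proteins. Their summed level was 646 to 2750 FPKM in the fat body libraries and 280 to 419 FPKM in the ovary libraries. At day 13, 5 of the 7 were higher in fat body than in ovary and 1 was lower (limma adjusted p under 0.05). The germline markers vasa, nanos and oskar summed to 10.2 to 29 FPKM in fat body, none of them at 0, against 377 to 765 FPKM in ovary. In tissue pieces such as these, fewer cells of a type and less RNA per cell cannot be told apart.

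Muscle markers moved with age in the fat body libraries. The 25 genes of that list summed to 3963 and 3917 FPKM at day 1, 14406 and 15025 FPKM at day 5, 11902 and 10114 FPKM at day 9, and 4736 and 4096 FPKM at day 13. The fat body libraries of days 5 and 9 therefore held more muscle transcript than those of days 1 and 13, which had similar sums. The fat body markers summed to 2274 and 2750 FPKM in fat body at day 13, against 646 and 927 FPKM at day 1, and lay between at days 5 and 9. The higher sum was not a rise of each gene. Of the 7 fat body markers, 1 rose and 2 fell between day 13 and day 1 (limma adjusted p under 0.05). The part of either list in the members' levels was not tested. The 5 follicle cell markers, chorion and vitelline membrane genes of the ovary, summed to 13.1 and 11.1 FPKM in fat body at day 13, against 184 and 50.7 FPKM at day 9. The 47 gut markers summed to 388 and 1831 FPKM in fat body at day 13, against 3029 and 2655 FPKM at day 9. The 6 hemocyte markers summed to 178 and 199 FPKM in fat body at day 13, against 124 and 132 FPKM at day 1.

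**Figure D1:**
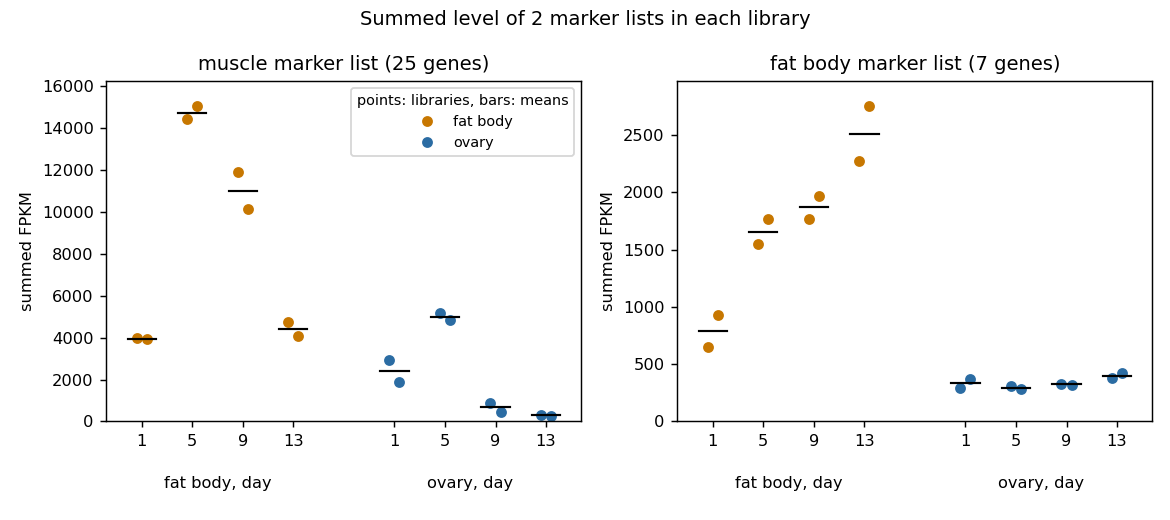
Summed FPKM of the muscle markers (left, 25 genes) and of the fat body markers (right, 7 genes) in each library, by tissue and day after eclosion. Points are libraries and bars are group means. In fat body, the muscle sum was 14406 and 15025 FPKM at day 5 and 4736 and 4096 FPKM at day 13, while the fat body sum at day 13 was 2274 and 2750 FPKM.

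Larval serum protein 2 (MSTRG.5581) was near 0 in every library except those of the fat body at day 13. In fat body it stood at 0 and 0.0211 FPKM at day 1, 0.0205 and 0 FPKM at day 5, 0.0672 and 0.00671 FPKM at day 9, and 1.52 and 2.29 FPKM at day 13. In ovary it was listed at 0 in 7 of 8 libraries and at 0.00547 FPKM in the remaining one, the first library of day 9. Both day 13 fat body libraries thus lay above all 14 others. Even so, its mean of 1.91 ± 0.548 FPKM in fat body at day 13 was low, rank 6752 among the 10213 genes that reached a mean of 1 FPKM in at least 1 group. It passed that filter only through this group. On the scale of log2 of FPKM plus 1, its difference between fat body at day 13 and at day 1 was 1.51, and this scale understates the change of so low a gene.

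4-hydroxyphenylpyruvate dioxygenase (MSTRG.4833) was highest in both day 13 fat body libraries. Its fat body levels were 6.74 and 9.52 FPKM at day 1, 2.83 and 3.73 FPKM at day 5, 4.54 and 7.85 FPKM at day 9, and 28.4 and 45.9 FPKM at day 13. The day 1 and day 9 libraries overlapped, both day 5 libraries lay below them, and both day 13 libraries lay above all the others. The mean of 37.1 ± 12.4 FPKM at day 13 was 4.57 times the 8.13 ± 1.97 FPKM of day 1 and 5.99 times the 6.2 ± 2.34 FPKM of day 9. In ovary the gene stayed low, at 2.16 and 2.28 FPKM at day 1, 1.59 and 1.62 FPKM at day 5, 1.86 and 2.69 FPKM at day 9, and 3.84 and 4.06 FPKM at day 13. Fat body exceeded ovary in all libraries of the same age, by 3.66-fold at day 1, 2.04-fold at day 5, 2.73-fold at day 9 and 9.39-fold at day 13.

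Homocysteine S-methyltransferase 1 (MSTRG.3516) was the most abundant of the 4 genes in the fat body at day 13. Its fat body levels were 185 and 151 FPKM at day 1, 73 and 58.5 FPKM at day 5, 72.2 and 63.6 FPKM at day 9, and 295 and 253 FPKM at day 13. The libraries of days 5 and 9 overlapped and lay below those of day 1, which lay below those of day 13. Its day 13 mean of 274 ± 29.7 FPKM was 1.63 times the 168 ± 23.9 FPKM of day 1 and 4.04 times the 67.9 ± 6.07 FPKM of day 9. In ovary it stood at 20.3 and 34.5 FPKM at day 1, 8.57 and 5.48 FPKM at day 5, 3.47 and 1.9 FPKM at day 9, and 2.64 and 1.98 FPKM at day 13. Every fat body library lay above every ovary library. The ratio of fat body to ovary was 6.13 at day 1, 9.36 at day 5, 25.3 at day 9 and 119 at day 13.

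Peroxiredoxin-6-like (MSTRG.8360) changed places between the tissues with age. Its fat body levels were 119 and 87.6 FPKM at day 1, 43.5 and 42.5 FPKM at day 5, 48.2 and 43.4 FPKM at day 9, and 275 and 158 FPKM at day 13. Days 5 and 9 overlapped and were lowest, day 1 lay above them, and day 13 was highest, with the wider spread. The mean of 217 ± 83 FPKM at day 13 was 2.09 times the 103 ± 22.4 FPKM of day 1 and 4.73 times the 45.8 ± 3.42 FPKM of day 9. In ovary it stood at 200 and 146 FPKM at day 1, 71.5 and 65.9 FPKM at day 5, 27.7 and 18.7 FPKM at day 9, and 27 and 26.4 FPKM at day 13. Fat body was below ovary in all libraries at days 1 and 5, with ratios of 0.598 and 0.626, and above it at days 9 and 13, with ratios of 1.98 and 8.11. It was the only one of the 4 genes whose day 13 fat body libraries did not exceed all 14 others, because its second library, at 158 FPKM, lay below the 200 FPKM of an ovary library of day 1.

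**Figure D2:**
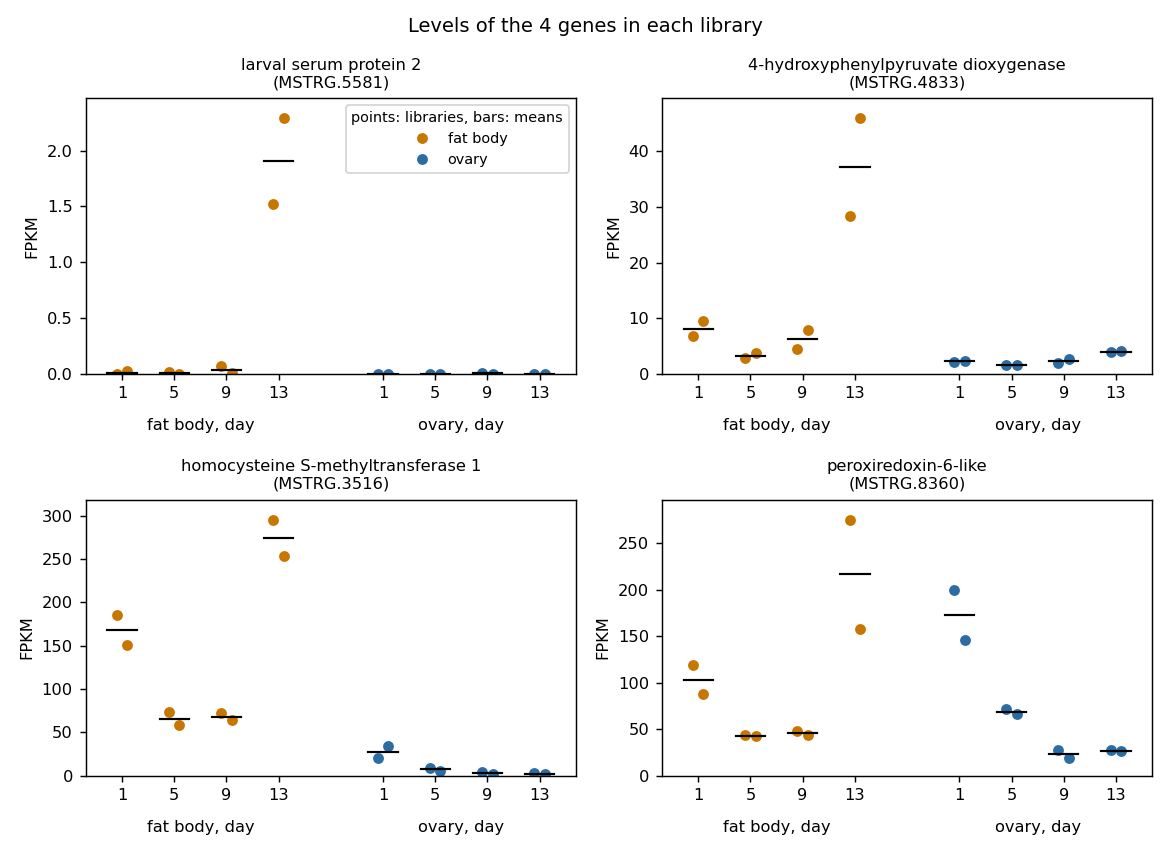
FPKM of the 4 genes in each of the 16 libraries, by tissue and day after eclosion, 1 panel per gene on its own linear axis. Points are libraries and bars are group means. Each gene was highest among fat body libraries at day 13, and in ovary homocysteine S-methyltransferase 1 and peroxiredoxin-6-like were lower at day 13 than at day 1.

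The 4 genes thus shared the day 13 maximum that chose them but differed in the path to it. Both day 13 libraries lay above all 6 other fat body libraries for 4 of 4 members, as they did for 5.10% of all genes tested, and nothing is read from this because it is how the genes were chosen. They lay above all 14 other libraries for 3 of 4 members, against 2.45% of all genes tested. Nothing is read from this either, since the 14 include the 6 fat body libraries used in the choice. Larval serum protein 2, 1 of those 3, also passed the filter of 1 FPKM only through the day 13 fat body group. Homocysteine S-methyltransferase 1 and peroxiredoxin-6-like had day 1 and day 13 libraries above all those of days 5 and 9. So did 3.64% of all genes tested, and nothing is read from this, because fat body levels chose both genes. On the scale of log2 of FPKM plus 1, their differences between fat body at day 5 and at day 1 were -1.34 and -1.23, and that of 4-hydroxyphenylpyruvate dioxygenase was -1.08, in a step where 3.80% of all genes tested rose and 10.7% fell. Rises were 26.1% of the changed genes in that step as deposited, 50.1% with median-of-ratios scaling and 47.4% after quantile normalization. Between day 9 and day 5, where 5.53% rose and 5.60% fell, the differences were 0.05 for homocysteine S-methyltransferase 1, 0.09 for peroxiredoxin-6-like and 0.72 for 4-hydroxyphenylpyruvate dioxygenase. The step between day 13 and day 9 was 1.47 for larval serum protein 2, 2.41 for 4-hydroxyphenylpyruvate dioxygenase, 2.0 for homocysteine S-methyltransferase 1 and 2.16 for peroxiredoxin-6-like. In the same step the muscle marker sum of the fat body libraries was 4736 and 4096 FPKM at day 13, against 11902 and 10114 FPKM at day 9, and the follicle cell sum was 13.1 and 11.1 FPKM, against 184 and 50.7 FPKM. All 3 germline markers fell in that step, with a median log2 change of -1.09. The part of these markers in the members' differences was not tested. Between day 13 and day 1 the muscle sums were similar (4 of 17 muscle genes tested fell and 0 rose). The fat body marker sum was higher at day 13, though of 7 fat body markers tested 1 rose and 2 fell. The members' differences there were 1.51, 2.04, 0.71 and 1.02 in the same gene order, beside a median of -0.24 over all genes tested. By mean level in fat body at day 13 the order was homocysteine S-methyltransferase 1 (rank 224 of 10213), peroxiredoxin-6-like (rank 276), 4-hydroxyphenylpyruvate dioxygenase (rank 1183) and larval serum protein 2. The libraries of the first and second in that order overlapped, and those of the others did not.

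In the ovary, 2 of the 4 genes fell with age. Tests used limma on log2 of FPKM plus 1 over 10213 genes, with Benjamini-Hochberg adjustment, and a gene counts as changed at an adjusted p under 0.05. Between day 13 and day 1, 35.0% of all genes tested fell and 20.8% rose. Homocysteine S-methyltransferase 1 averaged 2.31 ± 0.469 FPKM at day 13 and 27.4 ± 10.1 FPKM at day 1, a log2 fold change of -3.06 ± 0.29 (SE, limma adjusted p = 9.2e-06). Peroxiredoxin-6-like averaged 26.7 ± 0.451 FPKM at day 13 and 173 ± 37.9 FPKM at day 1, a log2 fold change of -2.63 ± 0.27 (SE, limma adjusted p = 1.6e-05). For both, the libraries of day 13 lay below both libraries of day 1. 4-hydroxyphenylpyruvate dioxygenase averaged 3.95 ± 0.157 FPKM at day 13 and 2.22 ± 0.0819 FPKM at day 1 and did not pass the test, with a log2 fold change of 0.62 ± 0.28 (SE, limma adjusted p = 0.083). It passed after quantile normalization (1.28, adjusted p = 0.00229), with the replicate block (0.62, adjusted p = 0.0267) and with median-of-ratios scaling (0.79, adjusted p = 0.038).

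Both falls in the ovary came in the first steps. Between day 5 and day 1, homocysteine S-methyltransferase 1 changed by -1.80 ± 0.29 (SE, limma adjusted p = 0.00208) and peroxiredoxin-6-like by -1.30 ± 0.27 (SE, limma adjusted p = 0.00721), while 16.3% of all genes fell and 7.42% rose. Between day 9 and day 5, peroxiredoxin-6-like changed by -1.55 ± 0.27 (SE, limma adjusted p = 0.00118) and homocysteine S-methyltransferase 1 by -1.13 ± 0.29 (SE, limma adjusted p = 0.0114), while 24.1% of all genes fell and 13.9% rose. Between day 13 and day 9, none of the 3 genes with ovary levels above 1 FPKM passed the limma test, in a step where 2.59% of all genes fell and 1.63% rose. The changes there were 0.61 ± 0.28 for 4-hydroxyphenylpyruvate dioxygenase (adjusted p = 0.272), -0.13 ± 0.29 for homocysteine S-methyltransferase 1 (adjusted p = 0.937) and 0.22 ± 0.27 for peroxiredoxin-6-like (adjusted p = 0.774). The call for homocysteine S-methyltransferase 1 between day 9 and day 5 was lost without the first ovary library of day 5 (-0.85, adjusted p = 0.0981), without the second of day 9 (-0.82, adjusted p = 0.105) and under quantile normalization (-0.64, adjusted p = 0.144). That for peroxiredoxin-6-like between day 5 and day 1 was lost without the second ovary library of day 5 (-1.25, adjusted p = 0.0505). With only the groups compared in the fit, homocysteine S-methyltransferase 1 passed neither between day 5 and day 1 (adjusted p = 0.0759) nor between day 9 and day 5 (adjusted p = 0.0644), and peroxiredoxin-6-like did not pass between day 5 and day 1 (adjusted p = 0.0579). Muscle markers in ovary ranged from 278 to 5157 FPKM in sum and were highest at day 5, and their part in these changes was not tested.

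Other genes with the same product names were compared with the members, and these were picked after their values were seen. A second peroxiredoxin-6-like gene, MSTRG.8359, had 142 and 99.1 FPKM at day 1, 45 and 44.6 FPKM at day 5, 43.5 and 50.9 FPKM at day 9, and 255 and 145 FPKM at day 13 in fat body. In ovary it averaged 213 ± 48.5 FPKM at day 1, 117 ± 3.3 FPKM at day 5, 17.1 ± 4.51 FPKM at day 9 and 16.8 ± 3.16 FPKM at day 13. Its levels ran close to those of MSTRG.8360 in fat body, and reads that fit both genes could have been split between them by the authors' counting, so the level of either is uncertain. It rose in fat body between day 13 and day 9 by 2.01 ± 0.29 (SE, limma adjusted p = 0.00358) and fell in ovary between day 13 and day 1 by 3.58 ± 0.29 on the log2 scale (SE, limma adjusted p = 2.83e-06). In fat body it did not pass between day 13 and day 1 (0.69 ± 0.29, limma adjusted p = 0.104). It did pass there with median-of-ratios scaling (1.15, adjusted p = 0.0171) and with the replicate block (0.69, adjusted p = 0.0469).

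Another peroxiredoxin-6-like gene, MSTRG.2292, averaged 17.1 FPKM at day 1, 6.45 FPKM at day 5, 4.52 FPKM at day 9 and 13.5 FPKM at day 13 in fat body. It did not pass between day 13 and day 1 (-0.30 ± 0.28, limma adjusted p = 0.492). It rose between day 13 and day 9 by 1.40 ± 0.28 (SE, limma adjusted p = 0.0138), a call lost without the first fat body library of day 9 (1.18, adjusted p = 0.0858) or the second of day 13 (1.19, adjusted p = 0.0867). The gene named peroxiredoxin-6, MSTRG.2176, had another tissue order, with 13.3 FPKM in fat body and 40.9 FPKM in ovary at day 13 (log2 difference -1.56 ± 0.20, limma adjusted p = 4.74e-05). A gene named homocysteine S-methyltransferase 1 isoform X2, MSTRG.3514, also ran opposite to its namesake. It averaged 4.57 ± 1.27 FPKM in fat body and 28.3 ± 3.65 FPKM in ovary at day 13 (log2 difference -2.41 ± 0.23, limma adjusted p = 4.24e-06). Larval serum protein 1 beta chain-like (35186) reached 2.11 and 0.796 FPKM in fat body at day 13, against 0.698 and 1.39 FPKM at day 1, and these overlapped (0.23 ± 0.26, limma adjusted p = 0.594).

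**Figure D3:**
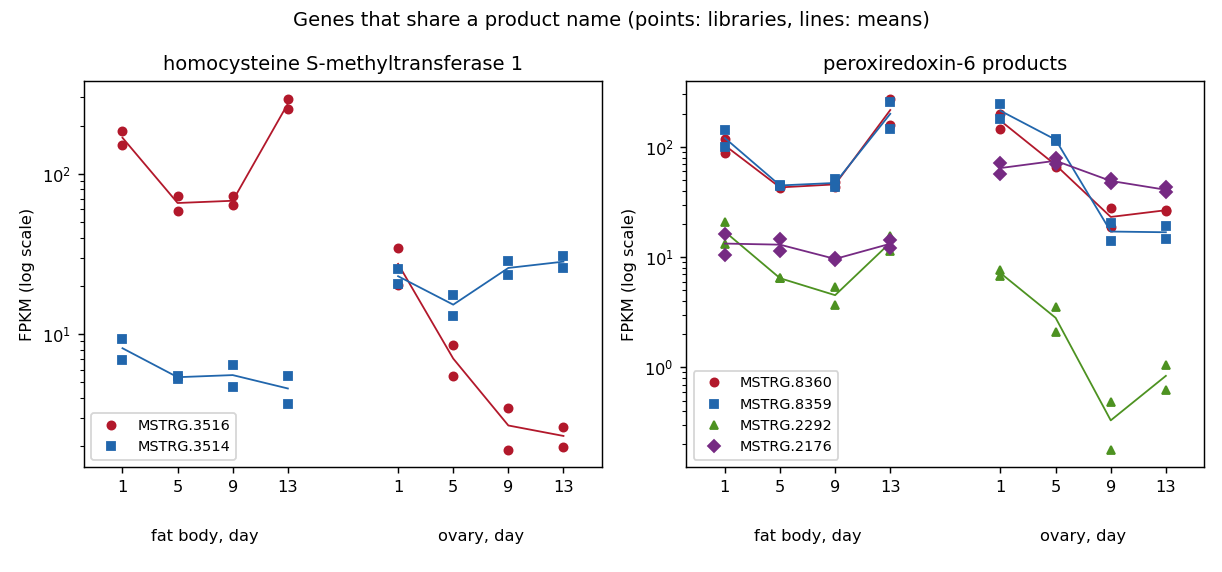
FPKM in each library, on log axes, of homocysteine S-methyltransferase 1 and peroxiredoxin-6-like and of other genes with those product names, by tissue and day after eclosion. Points are libraries and lines join group means. MSTRG.8359 runs close to MSTRG.8360 in fat body, and MSTRG.3514 is lower in fat body than in ovary while MSTRG.3516 is higher.

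The pathways around the members were followed in fat body through lists of product names, members left out. Between day 13 and day 1, 6.35% of all genes tested rose and 23.4% fell, with a median log2 change of -0.24. Quantile normalization put that median at 0.05 and median-of-ratios scaling at 0.04, and rises then made up 48% and 53.8% of the changed genes, against 21.4% as deposited. Direction in these lists is therefore read with that shift in mind.

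In the storage protein list, built from product names, 0 rose and 4 fell of 5 tested, with a median of -2.62. The 4 that fell were named fat-body protein 1 or fat body protein 2. Whether genes of these names encode storage proteins was not tested, so their falls are not read as falls of storage proteins. The larval serum protein tested, 35186, did not pass (0.23 ± 0.26, limma adjusted p = 0.594). Fat-body protein 1-like genes, named after a Drosophila protein of the larval fat body, fell to near 0, and MSTRG.4233 averaged 0.023 ± 0.0145 FPKM at day 13 and 12.3 ± 5.86 FPKM at day 1 (-3.63 ± 0.23, limma adjusted p = 2.99e-06). MSTRG.4231 fell by 2.62 ± 0.17 (limma adjusted p = 3.54e-06). Fat body protein 2 (MSTRG.1479) fell by 3.73 ± 0.61 (limma adjusted p = 0.00114), with 21.1 ± 18.8 FPKM at day 1. Larval serum protein 2 stood the other way from the 4 genes that fell, at 1.52 and 2.29 FPKM at day 13. It had 0 and 0.0211 FPKM at day 1, and this contrast was not tested.

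Of 7 genes in the list of phenylalanine and tyrosine breakdown, 2 rose and 2 fell, with a median of -0.31. Fumarylacetoacetate hydrolase domain-containing protein 2, 1 of the 2 that fell, is listed by its name alone. Whether it acts in this breakdown was not tested. Tyrosine aminotransferase (MSTRG.1106), which makes the substrate of 4-hydroxyphenylpyruvate dioxygenase, had 31.6 and 28.7 FPKM at day 13, against 13.7 and 19 FPKM at day 1. It rose by 0.86 ± 0.18 (SE, limma adjusted p = 0.00513), though the adjusted p was 0.0537 with a pseudocount of 0.1 and 0.0838 with only the groups compared in the fit. Between them it stood at 23.2 and 25.8 FPKM at day 5 and 8.62 and 10.1 FPKM at day 9, so its lowest age was day 9, where 4-hydroxyphenylpyruvate dioxygenase was lowest at day 5. Probable maleylacetoacetate isomerase 2 (MSTRG.5674) rose by 0.77 ± 0.26 (limma adjusted p = 0.0484), a call that held when the first fat body library of day 1 or either ovary library of day 1 was left out, and was lost without any other single library, with values of 0.50 to 1.03. It was also lost with the replicate block (adjusted p = 0.0593), with no filter (0.0619), without trend and robust moderation (0.052) and with only the groups compared (0.122). Homogentisate 1,2-dioxygenase-like (MSTRG.243), the next step after the member, fell to 27.6 ± 0.101 FPKM at day 13, against 49.4 ± 1.94 FPKM at day 1 (-0.82 ± 0.18, limma adjusted p = 0.00653). Another gene of that product name, MSTRG.260, did not pass (-0.21 ± 0.75, limma adjusted p = 0.901). The call of MSTRG.243 was lost with a pseudocount of 0.1 (-0.84, adjusted p = 0.178). It was also lost after quantile normalization (-0.46, adjusted p = 0.118) and with median-of-ratios scaling (-0.37, adjusted p = 0.173). Fumarylacetoacetate hydrolase domain-containing protein 2 (MSTRG.2675) changed by -0.75 ± 0.20 (limma adjusted p = 0.0171), a call lost under both of those settings (-0.38 and -0.36), without the first fat body library of day 1 (-0.62, adjusted p = 0.0951) and without the first of day 13 (-0.60, adjusted p = 0.116). Protein henna (MSTRG.8162), the phenylalanine hydroxylase that supplies tyrosine, had 212 ± 8.65 FPKM at day 13 and 312 ± 63.8 FPKM at day 1 and did not pass (-0.54 ± 0.24, limma adjusted p = 0.12). Fumarylacetoacetase (MSTRG.4931), the last enzyme, did not pass either (-0.31 ± 0.33, limma adjusted p = 0.55).

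Tyrosine also feeds melanin and amine synthesis. Of 7 tested genes of that list, 0 rose and 1 fell, with a median of -0.38. The gene that fell was an aromatic-L-amino-acid decarboxylase (MSTRG.9487), which makes dopamine and other amines (-1.52 ± 0.32, limma adjusted p = 0.00511). Others of that name, MSTRG.9488 (-0.03 ± 0.21, limma adjusted p = 0.953) and MSTRG.2826 (-0.38 ± 0.25, limma adjusted p = 0.296), did not pass.

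In the methionine cycle and transsulfuration, 2 of 10 tested genes rose and 4 fell, with a median of -0.29. Cystathionine beta-synthase (MSTRG.4529), which removes homocysteine toward cysteine, averaged 92.9 ± 0.184 FPKM at day 13 and 47.3 ± 2.36 FPKM at day 1 (0.96 ± 0.16, limma adjusted p = 0.00128). Glycine N-methyltransferase (MSTRG.898), which uses up S-adenosylmethionine, averaged 117 ± 10.8 FPKM at day 13 and 52.2 ± 11.4 FPKM at day 1 (1.16 ± 0.37, limma adjusted p = 0.0369). That call held when either fat body library of day 9 or any ovary library of days 1 and 5 was left out, and was lost without any other single library, with values of 0.94 to 1.38. It was also lost with a pseudocount of 0.1 (1.17, adjusted p = 0.0713). The 3 largest falls were in genes named putative adenosylhomocysteinase 2 and in adenosylhomocysteinase, the enzyme that releases homocysteine. Whether the genes of the first name release homocysteine was not tested. Another gene of that name, MSTRG.5086, did not pass (-0.34 ± 0.38, limma adjusted p = 0.586). Putative adenosylhomocysteinase 2 (MSTRG.614) fell by 1.87 ± 0.30 (limma adjusted p = 0.00105), MSTRG.615 by 1.54 ± 0.32 (limma adjusted p = 0.00454) and adenosylhomocysteinase (MSTRG.4334) by 1.10 ± 0.21 (limma adjusted p = 0.00326). The last of these was lost with only the groups compared (adjusted p = 0.0637) and with median-of-ratios scaling (-0.64, adjusted p = 0.0769), as was MSTRG.615 with only the groups compared (adjusted p = 0.0552). The remaining fall was that of MSTRG.3514, which shares the member's product name (-0.72 ± 0.23, limma adjusted p = 0.0393). That call was lost in several settings, among them quantile normalization (-0.35, adjusted p = 0.428) and median-of-ratios scaling (-0.34, adjusted p = 0.385).

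Of 20 genes tested in the list of other amino acid breakdown, 3 rose and 9 fell, with a median of -0.49. The list also holds genes named xanthine dehydrogenase and uricase, which act on purines and not on amino acids. The falls counted include uricase and the xanthine dehydrogenase-like gene MSTRG.9731 (-0.74 ± 0.24, limma adjusted p = 0.0402). Cytoplasmic aspartate aminotransferase (MSTRG.6192) rose by 1.36 ± 0.15 (limma adjusted p = 0.00011) and kynurenine 3-monooxygenase (MSTRG.8133), of tryptophan breakdown, by 1.21 ± 0.20 (limma adjusted p = 0.00131, or 0.0611 with only the groups compared). Ornithine aminotransferase (MSTRG.5227) had 270 and 313 FPKM at day 13, against 159 and 148 FPKM at day 1 (0.92 ± 0.18, limma adjusted p = 0.00316). Alanine--glyoxylate aminotransferase 2 (MSTRG.6765) fell by 2.10 ± 0.24 (limma adjusted p = 0.000123). Uricase (MSTRG.9934), which breaks down urate, changed by -1.74 ± 0.50 (limma adjusted p = 0.0247), and the gene of 4-aminobutyrate aminotransferase (MSTRG.1064) by -1.41 ± 0.33 (limma adjusted p = 0.00811). Both of these calls were lost under both other scalings and without the first fat body library of day 1 (-1.42, adjusted p = 0.133, for uricase and -1.19, adjusted p = 0.0577, for the aminotransferase). That for uricase was also lost without the first (-1.48, adjusted p = 0.131) or the second (-2.01, adjusted p = 0.0509) of day 13.

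In defence against peroxide and superoxide, 1 of 13 tested genes rose and 3 fell, with a median of -0.25. Cu-Zn superoxide dismutase (MSTRG.1822), which turns superoxide into hydrogen peroxide, averaged 108 ± 16.1 FPKM at day 13 and 64.9 ± 7.15 FPKM at day 1 (0.72 ± 0.15, limma adjusted p = 0.00504, or 0.0955 with only the groups compared). A phospholipid hydroperoxide glutathione peroxidase (MSTRG.5064) fell by 1.11 ± 0.30 (limma adjusted p = 0.0184), peroxiredoxin-2 (MSTRG.2031) by 1.02 ± 0.21 (limma adjusted p = 0.00445) and the mitochondrial Mn superoxide dismutase (MSTRG.6348) by 0.75 ± 0.16 (limma adjusted p = 0.00552). All 3 of these falls were lost under median-of-ratios scaling, where their values were -0.66, -0.57 and -0.29, and with only the groups compared (adjusted p = 0.0827, 0.0746 and 0.0995). The first of them was also lost without the first fat body library of day 1 (-0.88, adjusted p = 0.111) or the second of day 13 (-0.84, adjusted p = 0.135).

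Yolk proteins, the main export of the adult female fat body, had 4 of 9 genes that rose and 2 that fell, with a median of 2.28. Vitellogenin-2-like (MSTRG.3414) averaged 15265 ± 358 FPKM at day 13 and 56.1 ± 7.7 FPKM at day 1 (8.07 ± 0.15, limma adjusted p = 8.45e-10). It stood at 987 ± 37.4 FPKM at day 5 and 8148 ± 781 FPKM at day 9, ages at which 4-hydroxyphenylpyruvate dioxygenase, homocysteine S-methyltransferase 1 and peroxiredoxin-6-like had means below those of day 1. The vitellogenin-1-like genes MSTRG.3415 and MSTRG.10714 rose by 8.06 ± 0.23 and 8.05 ± 0.34 (limma adjusted p = 1.8e-08 and 4.02e-07). MSTRG.3980 and MSTRG.3977 fell by 1.31 ± 0.36 and 1.23 ± 0.18 (limma adjusted p = 0.0188 and 0.000536). The fall of MSTRG.3980 was lost under median-of-ratios scaling (-0.85, adjusted p = 0.104), without the first fat body library of day 1 (-1.18, adjusted p = 0.0895) and without the second of day 13 (-1.14, adjusted p = 0.112).

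**Figure D4:**
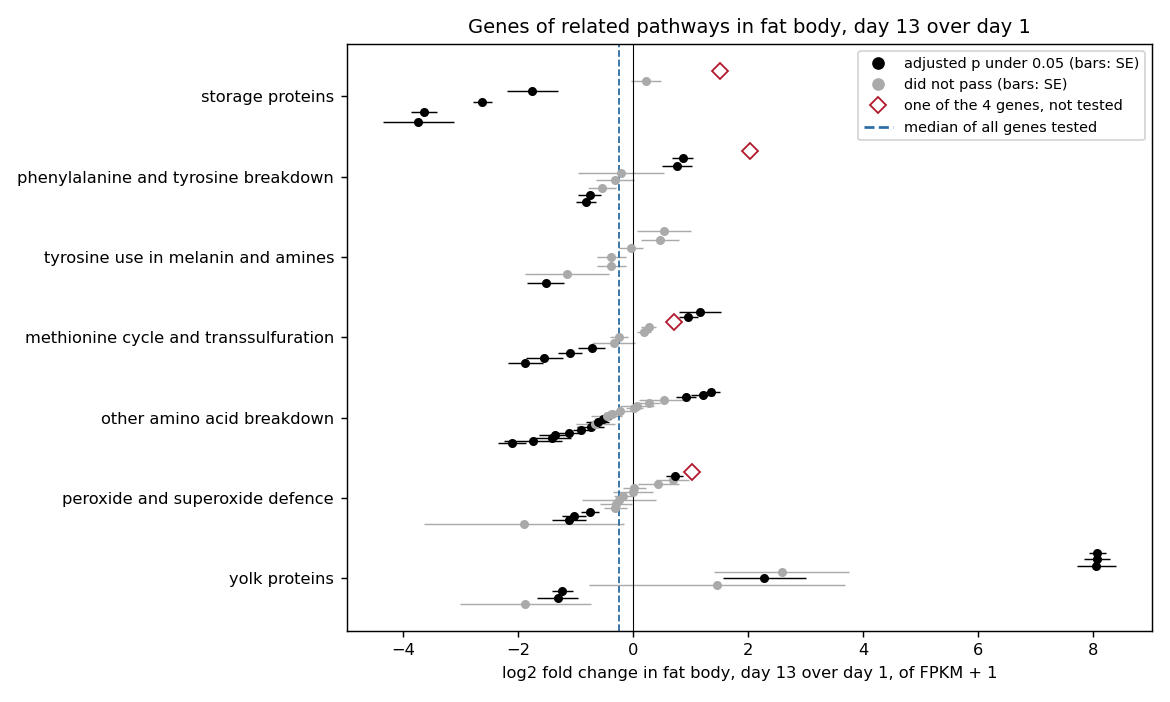
Log2 change between fat body at day 13 and at day 1 for the genes of each pathway list, with the median of all genes drawn at -0.24. Black points passed the adjusted p threshold of 0.05, grey points did not, bars are SE and open diamonds are the 4 genes, which carry no test. Of the 5 genes tested in the storage protein list, the 4 named fat-body protein 1 or fat body protein 2 fell. Larval serum protein 1 beta chain-like stands at 0.23 and did not pass, and larval serum protein 2 stands at 1.51.

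The last step, between fat body at day 13 and at day 9, held few changes, with 1.73% of all genes higher and 5.42% lower and a median of -0.07. In that step 0 genes of the storage protein list rose and 0 fell, with a median of 0.02. Tyrosine aminotransferase was the 1 gene of tyrosine breakdown that rose (1.59 ± 0.18, limma adjusted p = 0.00133), and 0 fell. Ornithine aminotransferase was the 1 gene that rose among the other amino acid genes (1.24 ± 0.18, limma adjusted p = 0.00358), and 0 fell. The methionine list had 0 rises and 1 fall, S-adenosylmethionine synthase (MSTRG.9576), with 230 ± 1.35 FPKM at day 13 and 357 ± 41.5 FPKM at day 9 (-0.63 ± 0.13, limma adjusted p = 0.015). That fall was lost under quantile normalization (-0.29, adjusted p = 0.355), without the first fat body library of day 9 (-0.51, adjusted p = 0.0899), and without the first (-0.64, adjusted p = 0.072) or the second (-0.63, adjusted p = 0.0684) of day 13. Among melanin and amine genes 1 fell, the aromatic-L-amino-acid decarboxylase MSTRG.2826, with 26.2 ± 6.16 FPKM at day 13 and 159 ± 33.2 FPKM at day 9 (-2.56 ± 0.25, limma adjusted p = 0.000388). The peroxide list had 2 rises, the peroxiredoxin-6-like genes MSTRG.8359 and MSTRG.2292, and 0 falls. Reads could have been split between MSTRG.8359 and the member MSTRG.8360, so the rise of MSTRG.8359 may repeat that of the member and is not read as a separate result. Of the yolk proteins 1 rose, vitellogenin-2-like MSTRG.3414 (0.91, limma adjusted p = 0.0068), whose value was -0.32 under quantile normalization (adjusted p = 0.261). When only the 4 libraries compared were fitted, 1 gene in all passed in this step, against 731 with all 16 libraries in the fit. Members and list genes share the day 13, day 9 and day 1 libraries in these comparisons, so their values are set side by side and not related to each other by a test.

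In the ovary the same lists differed between day 13 and day 1, beside 20.8% of all genes that rose and 35.0% that fell, with a median of -0.24. The storage protein list had 0 rises and 5 falls of 5 tested (median -2.30), and tyrosine breakdown 0 and 4 of 7 (median -0.60). Melanin and amines had 0 and 6 of 7 (median -2.12), and the other amino acid genes 3 and 12 of 20 (median -0.82). The methionine list had 3 rises and 4 falls of 10 (median 0.26), the peroxide list 2 and 3 of 13 (median -0.19) and the yolk proteins 3 and 3 of 9 (median 0.00). Tyrosine aminotransferase fell by 1.10 ± 0.18 in ovary (limma adjusted p = 0.000455), a call lost after quantile normalization (-0.16, adjusted p = 0.484), and protein henna by 3.36 ± 0.24 (limma adjusted p = 1.08e-06). The change between day 13 and day 1 was higher in fat body than in ovary for 23.5% of all genes tested and lower for 24.5%, and for tyrosine aminotransferase it was higher by 1.96 ± 0.26 (limma interaction, adjusted p = 0.000156). At day 13, fat body exceeded ovary in 5 genes of tyrosine breakdown and was below it in 1, beside 21.8% of all genes higher and 46.0% lower. Protein henna was 6.41 ± 0.24 higher in fat body on the log2 scale (limma adjusted p = 4.98e-09) and tyrosine aminotransferase 4.65 ± 0.18 higher (limma adjusted p = 7.09e-09). Of the other amino acid genes 16 were higher in fat body and 3 lower, of the methionine list 5 and 4, and of the peroxide list 5 and 5.

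For each member, the genes whose log2 profile over the 16 libraries was most like its own were found by the root mean square difference after each gene's mean was subtracted. Those for homocysteine S-methyltransferase 1 were glycine dehydrogenase (MSTRG.4730, 0.51) and aminomethyltransferase (MSTRG.306, 0.53), both of the glycine cleavage system, and amidophosphoribosyltransferase (MSTRG.5502, 0.56), the first enzyme of purine synthesis. The median over 2124 genes was 2.40. Glycine dehydrogenase averaged 59.3 FPKM at day 1, 21 FPKM at day 5, 32.8 FPKM at day 9 and 63.5 FPKM at day 13 in fat body, and 5.25, 2.58, 0.916 and 0.475 FPKM in ovary at the same ages. Amidophosphoribosyltransferase averaged 120, 63.1, 106 and 193 FPKM in fat body and 11.3, 5.38, 1.02 and 0.87 FPKM in ovary.

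For peroxiredoxin-6-like MSTRG.8360, the closest gene was MSTRG.8359 (0.41), then angiotensin-converting enzyme (MSTRG.10786, 0.63), a peptidase, and fatty acid hydroxylase domain-containing protein 2-like (MSTRG.3091, 0.64), beside a median of 1.31. For 4-hydroxyphenylpyruvate dioxygenase they were trypsin (MSTRG.5194, 0.59), putative serine protease K12H4.7 (MSTRG.1763, 0.63) and the adenylate kinase AK3 (MSTRG.9200, 0.64), beside a median of 1.46. Trypsin MSTRG.5194 had 98.4 and 139 FPKM in fat body at day 13, against 30.3 and 27 FPKM at day 9. It belongs to the gut list, whose sum at day 13 was below that of day 9. For larval serum protein 2 they were protein disulfide-isomerase A6 (MSTRG.7904, 0.34), S-adenosylmethionine decarboxylase (MSTRG.1878, 0.35) and kidney mitochondrial carrier protein 1 (MSTRG.4858, 0.36), beside a median of 0.93 over 2125 genes. None of those 3 was near 0 at other ages: protein disulfide-isomerase A6 averaged 99.2 FPKM in fat body at day 13 and 37.1 FPKM at day 1, and 55.6 FPKM in ovary at day 13. Genes were chosen for likeness here, so these values are a description with no test.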

How the data were processed

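The deposited FPKM values of 13759 genes in 16 libraries were used as the authors gave them. Per the submitters' processing notes the tools were HISAT2 2.0, StringTie 1.3.0 and Bowtie 0.12.2, with no role named for each. The notes also name the build mm8, which is a mouse build. The fly assembly and annotation are not given in the sources used here, so no positions are printed. FPKM is scaled to library size, which leaves depth unknown and counting error without an interval, and a group that spends more of its RNA on a few transcripts has lower FPKM elsewhere.

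Values were taken as log2 of FPKM plus 1, a scale that understates changes of low genes. Genes whose mean reached 1 FPKM in some group (10213) entered limma 3.58.1, run in R 4.3.3 (trend, robust, 1 coefficient per group, all 16 libraries, Benjamini-Hochberg adjustment over all genes tested). Fold changes against a group near 0 depend on the pseudocount. Scripts were tested on simulated data. Each p-value sets a difference against the spread between libraries within groups, pooled over all groups in the fit and moderated across genes. In the main fit it does not measure the spread of the compared groups alone. Other computing and plotting used numpy 2.4.6, matplotlib 3.10.9 and pandas 2.3.3 under Python 3.11.15.

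Genes are called by product name and table identifier, and 325 genes with several product names were left out of the lists. The table's separate symbol column names another gene than the description for all 4 genes described here, so it was not used, and identity rests on the deposited descriptions. The members and lists were chosen with earlier results of these data known. Named list genes are, per list and direction, up to 3 with the largest change that passed between fat body at day 13 and at day 1. Genes of likeness are the 3 closest to each member among those with an informative name and at least 10 FPKM in fat body at day 13. Other genes that share the product name of a member or of a named list gene were chosen after their values were seen. So were larval serum protein 1 beta chain-like, protein henna, fumarylacetoacetase and the genes named in the last step alone.

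Alternatives were no filter, a filter at 5 FPKM, a pseudocount of 0.1, median-of-ratios scaling, quantile normalization, only the groups compared, limma without trend and robust moderation, a replicate block, each library left out in turn and, chosen after seeing the data, omission of the 4 fat body libraries of days 5 and 9. No 2 libraries held identical values (0 pairs).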

Additional observations from a re-analysis of the deposited data

Results flagged for a closer look

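Between day 13 and day 1, the log2 change in fat body minus that in ovary was 3.77 for homocysteine S-methyltransferase 1 (MSTRG.3516: 0.71 in fat body, -3.06 in ovary) and 3.65 for peroxiredoxin-6-like (MSTRG.8360: 1.02 in fat body, -2.63 in ovary). Both day 13 libraries were higher than both day 1 libraries in fat body and lower in ovary. The difference between the tissues was not tested for these members, because fat body levels chose them.

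For genes of the pathway lists the difference between the tissues was tested as an interaction in limma, and the following passed at an adjusted p under 0.05, as did 23.5% (higher) and 24.5% (lower) of all genes tested. Tyrosine aminotransferase (MSTRG.1106) differed by 1.96 ± 0.26 (adjusted p = 0.000156; 0.86 in fat body, -1.10 in ovary). Kynurenine 3-monooxygenase (MSTRG.8133) differed by 2.54 ± 0.29 (adjusted p = 5.91e-05; 1.21 in fat body, -1.32 in ovary). Glycine N-methyltransferase (MSTRG.898) differed by 2.30 ± 0.52 (adjusted p = 0.0043; 1.16 in fat body, -1.14 in ovary), a call lost under quantile normalization (1.27, adjusted p = 0.0716). Cytoplasmic aspartate aminotransferase (MSTRG.6192) differed by 1.01 ± 0.22 (adjusted p = 0.00338).

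Changes that were lower in fat body than in ovary were those of adenosylhomocysteinase (MSTRG.4334: -1.32 ± 0.30, adjusted p = 0.00464), fat-body protein 1-like (MSTRG.4233: -1.32 ± 0.33, adjusted p = 0.00756), 4-aminobutyrate aminotransferase (MSTRG.1064: -1.92 ± 0.46, adjusted p = 0.00595) and Mn superoxide dismutase (MSTRG.6348: -0.97 ± 0.23, adjusted p = 0.00552). Alanine--glyoxylate aminotransferase 2 (MSTRG.6765: -1.15 ± 0.34, adjusted p = 0.0183), peroxiredoxin-2 (MSTRG.2031: -0.98 ± 0.30, adjusted p = 0.0205) and fumarylacetoacetate hydrolase domain-containing protein 2 (MSTRG.2675: -0.83 ± 0.28, adjusted p = 0.0342) did so too. With each library left out, these 3 ranged over -1.42 to -0.88, -1.25 to -0.70 and -1.05 to -0.61 in that order of genes. The call of MSTRG.6765 was lost without the second fat body library of day 1 or day 13, the second ovary library of day 1 or the first of day 13. The call of MSTRG.2031 was lost without the first fat body library of day 1 or day 13, the second ovary library of day 1 or the first of day 13, and under both other scalings. That of MSTRG.2675 was lost without the first fat body library of day 1 or day 13 or the second ovary library of day 1 or day 13, and under both other scalings. MSTRG.4233 was near 0 at day 13 in both tissues (0.023 FPKM in fat body, 0.0138 FPKM in ovary). Its difference therefore rests on the day 1 levels, 12.3 FPKM in fat body and 4 FPKM in ovary. With only the groups compared, the calls of MSTRG.4233, MSTRG.6765 and MSTRG.2675 were lost (limma adjusted p = 0.0551, 0.051 and 0.0842).

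Among yolk proteins, the change in fat body exceeded that in ovary by 1.74 ± 0.21 for MSTRG.3414 (adjusted p = 9.91e-05), 2.10 ± 0.32 for MSTRG.3415 (adjusted p = 0.000421), 1.60 ± 0.48 for MSTRG.10714 (adjusted p = 0.0185), 4.45 ± 0.51 for MSTRG.3980 (adjusted p = 6.11e-05) and 3.14 ± 0.25 for MSTRG.3977 (adjusted p = 6.79e-06). For the first 3 of these the sign turned under quantile normalization. The call of MSTRG.10714 was lost without the second fat body library of day 1 (1.49), the first of day 13 (1.28) or the second ovary library of day 13 (1.12).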

How the results depend on the processing

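The day 13 differences of the 4 genes in fat body kept their sign in every alternative run that gave a value. Nothing is read from this, because the genes were chosen for day 13 levels above those of the other fat body libraries. Larval serum protein 2 lay below the stricter filter and had no value there. Omission of all day 9 fat body libraries left no difference against day 9. Against day 1, larval serum protein 2 (MSTRG.5581) moved to 4.16 with a pseudocount of 0.1, 1.94 after quantile normalization and 1.96 with median-of-ratios scaling, and against day 9 to 3.88, 1.88 and 1.90. Median-of-ratios scaling gave 2.51 for 4-hydroxyphenylpyruvate dioxygenase, 1.17 for homocysteine S-methyltransferase 1 and 1.48 for peroxiredoxin-6-like against day 1. With each library left out, these ran over 1.32 to 1.71, 1.70 to 2.38, 0.56 to 0.85 and 0.62 to 1.42 against day 1, and 1.28 to 1.67, 2.07 to 2.74, 1.89 to 2.11 and 1.76 to 2.56 against day 9.

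In the ovary, 4-hydroxyphenylpyruvate dioxygenase passed between day 13 and day 1 after quantile normalization (1.28), with median-of-ratios scaling (0.79) and with the replicate block (0.62), and between day 9 and day 5 under quantile normalization (0.78). Homocysteine S-methyltransferase 1 lost its call between day 9 and day 5 under quantile normalization (-0.64). Between day 13 and day 9, where it had not passed, it was 0.08 under quantile normalization, 0.19 without the first ovary library of day 9 and 0.02 without the second of day 13. Peroxiredoxin-6-like was -0.05 there without the second of day 9. Fits to only the groups compared lost homocysteine S-methyltransferase 1 between day 5 and day 1 (-1.80) and between day 9 and day 5 (-1.13) and peroxiredoxin-6-like between day 5 and day 1 (-1.30). With each library left out, values ran over 0.59 to 0.65, -0.33 to -0.28, 0.13 to 0.50 and 0.43 to 0.79 for 4-hydroxyphenylpyruvate dioxygenase (day 13 against 1, 5 against 1, 9 against 5, 13 against 9). They ran over -3.43 to -2.69, -2.17 to -1.43, -1.44 to -0.82 and -0.44 to 0.19 for homocysteine S-methyltransferase 1, and -2.86 to -2.41, -1.53 to -1.08, -1.83 to -1.28 and -0.05 to 0.50 for peroxiredoxin-6-like.

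With only the groups compared, counts of changed genes were 359 in ovary day 5 against 1 (2426 with all 16), 4 in ovary day 13 against 9 (431), 1330 in fat body day 13 against 1 (3038), 137 in fat body day 5 against 1 (1484), 566 in fat body day 9 against 5 (1137) and 1 in fat body day 13 against 9 (731), but higher in ovary day 9 against 5 (4116, with 3881 for all 16) and in fat body against ovary at day 13 (7043, with 6929). Ovary day 13 against 9 gave 261 under quantile normalization and 206 without the 4 fat body libraries of days 5 and 9. With each library left out, counts ran over 4834 to 5830 in ovary day 13 against 1, 1189 to 2544 in day 5 against 1, 2807 to 4126 in day 9 against 5 and 155 to 458 in day 13 against 9. In fat body they ran over 2202 to 3176, 612 to 1630, 563 to 1257 and 400 to 816 in the same order, 6310 to 7035 for fat body against ovary at day 13 and 4257 to 4955 for the difference between tissues. Libraries that moved a count by over 1.5 times were either of ovary day 5 (ovary day 5 against 1), any of ovary days 9 and 13 and of fat body day 5 (ovary day 13 against 9), fat body day 5 and the first of day 1 (fat body day 5 against 1), fat body day 5 and the second of day 9 (fat body day 9 against 5), and fat body day 9 and the first of day 13 (fat body day 13 against 9). Rises made up 37.3% of changed genes in ovary day 13 against 1 (50.6% under median-of-ratios scaling, 51% under quantile normalization), 31.2% in day 5 against 1 (42.7%, 49.3%), 36.6% in day 9 against 5 (53.7%, 49.8%), 26.1% in fat body day 5 against 1 (50.1%, 47.4%), 24.2% in day 13 against 9 (39.9%, 44.9%) and 32.2% in fat body against ovary at day 13 (50.4%, 43.2%).

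Replicate numbers left little trace in the values. For each group, the deviation of replicate 1 from its group mean was taken over the genes tested. Over 28 pairs of groups these deviations correlated at -0.15 to 0.15, and 1 pair was over 0.1. Whether same-numbered libraries came from the same flies cannot be told from this. The replicate block gave 2914 changed genes in fat body day 13 against 1 and 5624 in ovary day 13 against 1, and moved no count by over 1.5 times. Quantile normalization turned the differences between tissues of MSTRG.3414 (-0.63), MSTRG.3415 (-0.09) and MSTRG.10714 (-0.85), and the fat body change of MSTRG.3414 in day 13 against 9 (-0.32). Day 13 against day 1 in fat body turned, in genes that had not passed, for MSTRG.4931 (0.13 under median-of-ratios scaling, 0.02 under quantile normalization), MSTRG.2292 (0.14, 0.06, and -0.61 to 0.02 with each library left out), MSTRG.2176 (-0.28 to 0.32 with each library left out) and 35186 (-0.17 to 0.62). MSTRG.2176 also gave -0.08 without the first of day 13, and 35186 -0.02 without the first of day 1. Where no cause is named for a move, the cause was not tested.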
